A study of Homo sapiens with 15 samples.

Results

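The genes described here are 35 genes of glucose uptake, glycolysis and lactate handling, picked by symbol from the 19684 genes of the deposited tables, where all 35 were found. They were followed through 15 RNA-seq libraries, 3 from each of 5 groups. Every group came from BC1-GFP, a single human induced pluripotent stem cell (hiPSC) line with a green fluorescent protein reporter, so the groups are stages and cultures of 1 line and say nothing of how lines differ. The hiPSCs were undifferentiated cells kept in mTeSR1 medium. Retinal organoids (ROs) were grown from them in retinal media with serum and taurine and sampled at differentiation day 70 (D70-ROs, here also D70) and day 150 (D150-ROs, D150). Induced Müller glial cells (iMGCs) were cultures grown out of dissociated ROs in DMEM with 10% serum, sampled at passage 1 (P1 iMGCs, P1) and passage 5 (P5 iMGCs, P5). Organoid libraries held only the dissected neural retina layer, pooled from 5 ROs each, and all iMGCs came from that layer of D150-ROs. Since hiPSCs, ROs and iMGCs each had a medium of their own, and the supplement of the RO medium changed from B27 to N2 between the sampling days, stage or cell type and medium cannot be told apart when they are compared.

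Glycolysis splits glucose into pyruvate in a chain of steps that begins with a glucose transporter and hexokinase and ends with pyruvate kinase. Lactate dehydrogenase converts pyruvate to lactate and back, and monocarboxylate transporters move lactate across the cell membrane. Pyruvate dehydrogenase kinases hold pyruvate out of the citric acid cycle. The retina is known for making lactate even where oxygen is plentiful. Photoreceptors use much of its glucose, and lactate exchange between them and Müller glia has long been discussed. Many steps have several isozymes, which are enzymes for the same reaction made from different genes, and tissues differ in which they use.

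Levels are FPKM (fragments per kilobase of transcript, scaled to the mapped fragments of the library), which are per length and so can be set side by side between genes. Fold changes are log2 values, with standard errors (SE), of an edgeR fit to the expected counts with TMM scaling, and a gene was called at an adjusted p under 0.05 and a change of at least 2-fold. The expected counts of a library summed to between 11349600, in D70-RO replicate 2, and 20398755. FPKM and counts do not share a scale between groups. Over all genes tested, the median log2 change from D150 to P1 was -0.048 in the count fit and -0.59 by log2(mean FPKM + 1), and from D70 to D150 it was -0.0082 and 0.18. Members that moved little therefore turn direction with the scale, and those that did are named in a later paragraph.

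Marker genes were read for each group. The 5 markers of pluripotent cells summed to 3391 to 3510.1 FPKM in hiPSCs and to at most 17.0 elsewhere. Those of photoreceptors (CRX, RCVRN, NRL and 6 others) summed to 1185 to 1287 FPKM at D150, 151 to 159 at D70 and 0.12 to 0.56 in iMGCs, and those of inner retinal neurons to 54.4 to 78.4, 43.4 to 70.4 and 0.27 to 0.82. The 8 Müller glia markers summed to 2150 to 2427 FPKM at D150, 2479 to 2506 at P1 and 3235 to 3324 at P5. VIM was most of that sum in iMGCs, at 985 to 1136 FPKM at D150 and 2141 to 2901 in iMGCs. RLBP1 lay at 29.6 to 36.9 FPKM at D150 and 0 to 0.09 in iMGCs. At the protein, the paper reports SOX9 and glutamine synthetase (from GLUL) in almost all of the passaged cells. AQP4 was at 0 in all iMGC libraries. Between D150 and P1, 1 of the 7 tested Müller markers was called higher and 5 lower, and RLBP1, AQP4 and SLC1A3 were at or near 0 in the cells labelled as glia (0.36 to 1.23 FPKM for SLC1A3). The 8 mesenchymal markers, FN1 and COL1A1 among them, summed to 40.7 to 45.2 FPKM at D150 and 12511 to 14024 in iMGCs. Markers of dividing cells summed to 365 to 444 FPKM in hiPSCs, 91.8 to 127 at D70, 29.1 to 42.0 at D150 and 31.4 to 43.4 in iMGCs. These marker lists also differed between the groups, some of them in other directions than the glycolysis genes, and their part in the results was not tested. In bulk RNA, fewer cells of a type and less of a transcript per cell cannot be told apart.

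Summed over 19 genes, transcripts of glycolysis were most abundant in hiPSCs, least abundant in D150-ROs, and in between in iMGCs. The 19 genes that cover hexokinase to pyruvate kinase held 3.55% ± 0.11 (SD, n = 3) of the summed FPKM of a library in hiPSCs and 2.02% ± 0.50 at D70. At D150 they held 1.05% ± 0.042, at P1 1.48% ± 0.021 and at P5 1.61% ± 0.0037. No 2 of the 5 groups overlapped in this sum. The D70-RO libraries were the most uneven, with 1.71%, 2.60% and 1.76%. GAPDH alone held 0.231% to 0.256% of the summed FPKM at D150, 0.698% to 0.716% at P1 and 0.781% to 0.809% at P5. The rise of the sum from D150 to iMGCs was thus about as large as that of GAPDH by itself, and is not a rise shared by all 19 genes. Of the 35 genes, 16 had a mean of at least 100 FPKM in hiPSCs and 4 a mean under 1, and at D150 these numbers were 11 and 7.

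In D70-ROs against hiPSCs, 31 of the 35 genes passed the filter on low values. Of these 2 were called higher, PFKM and PDK4, and 12 lower, where 22.5% of all genes tested were called higher and 21.1% lower. Their median log2 change was -0.77, and that of all genes 0.023. SLC2A4 and PGAM2 passed the filter through the hiPSC libraries alone and PDK4 through those of D70 alone, which fixes their direction, and without these 3 genes 1 was called higher and 10 lower of 28, with a median of -0.74. SLC2A4 and PGAM2 could not be tested once any hiPSC library was left out. The calls of HK1, ENO1, ENO3 and PKM fell short of 2-fold without D70-RO replicate 1 (-0.92 for HK1 to -0.79 for ENO1), and those of ENO1 and PKM also without D70-RO replicate 3. Those of ENO1, ENO3 and PKM were lost with upper-quartile scaling and by limma on log2(FPKM + 1) and log2(FPKM + 0.1). They were also lost with a trend by transcript length removed, an alternative chosen after seeing the data. Limma on log2(TPM + 1), likewise chosen later, lost those of PFKM and PKM.

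In D150-ROs against D70-ROs, 29 genes were tested, none was called higher and 17 were called lower by edgeR as by DESeq2, with 16.6% and 16.7% of all genes called in these directions by edgeR. At an unadjusted p under 0.05 alone, 2 were higher and 22 lower. The median was -1.33 for the 29 genes and -0.0082 for all, and without PDK4, which passed the filter through D70 alone, 16 of 28 were called lower. Genes of nearly every step of the pathway were among the 17: SLC2A1 and SLC2A3, HK2, GPI, both PFKFB3 and PFKFB4, ALDOA, TPI1, GAPDH, PGK1, PGAM1, ENO1, both LDH genes, SLC16A3, PDK1 and PDK4. Short transcripts fell more than long ones in this step over all genes, with a median of -0.67 in the 25% of genes with the shortest transcripts and 0.55 in the 25% with the longest, and 7 of the tested members lie among the shortest. With that length trend taken out, an alternative chosen after seeing the data, 13 members were called lower, and the calls of TPI1, PGAM1, LDHA and LDHB were lost. Limma on log2(TPM + 1), also chosen after seeing the data, called 9 lower and 2 higher, ALDOC (1.33) and ENO2 (1.40), and lost the calls of SLC2A1, SLC2A3, TPI1, PGAM1, LDHA, LDHB, PDK1 and PDK4.

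In P1 iMGCs against D150-ROs the direction was mixed, with 10 of 29 tested genes called higher and 3 lower, against 20.0% and 24.1% of all genes. Their median was 0.66, against -0.048 for all genes. Higher were PFKP, PFKFB2, ALDOA, GAPDH, PGK1, PGAM1, LDHA, LDHB, SLC16A3 and SLC16A7, and lower were ALDOC, ENO2 and ENO3. SLC16A7 needed the P1 libraries to pass the filter, which favours its direction, so its place among the 10 is a description. On log2(FPKM + 1) with limma, 6 were called higher and 6 lower, because PFKP, PFKFB2, PGK1 and LDHB were no longer called and HK1, PFKM and SLC16A1 were called lower. Of all genes called in that fit 22.9% were higher, against 45.4% in the count fit. With P5 in place of P1, 13 genes were called higher and 2 lower.

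P1 iMGCs stayed below hiPSCs. Of 31 tested genes 22 were called lower and 1, SLC16A7, higher, where 29.7% of all genes were called lower and 26.1% higher, and the median was -1.61 against -0.083. The calls of GAPDH and LDHB, at -1.01 ± 0.067 and -1.02 ± 0.12, fell short of 2-fold when any 1 of the P1 libraries was left out and by DESeq2 with all libraries (-0.99 and -0.996). The call of ALDOA was lost without P1 replicate 1 (-0.98), and with the length trend removed those of ALDOA (-0.60), GAPDH and LDHB were lost. SLC2A4 and PGAM2 passed the filter through the hiPSC libraries alone and SLC16A7 through those of P1 alone, and 20 of the other 28 genes were called lower. The comparisons share groups, so the counts are not independent.

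**Figure D1:**
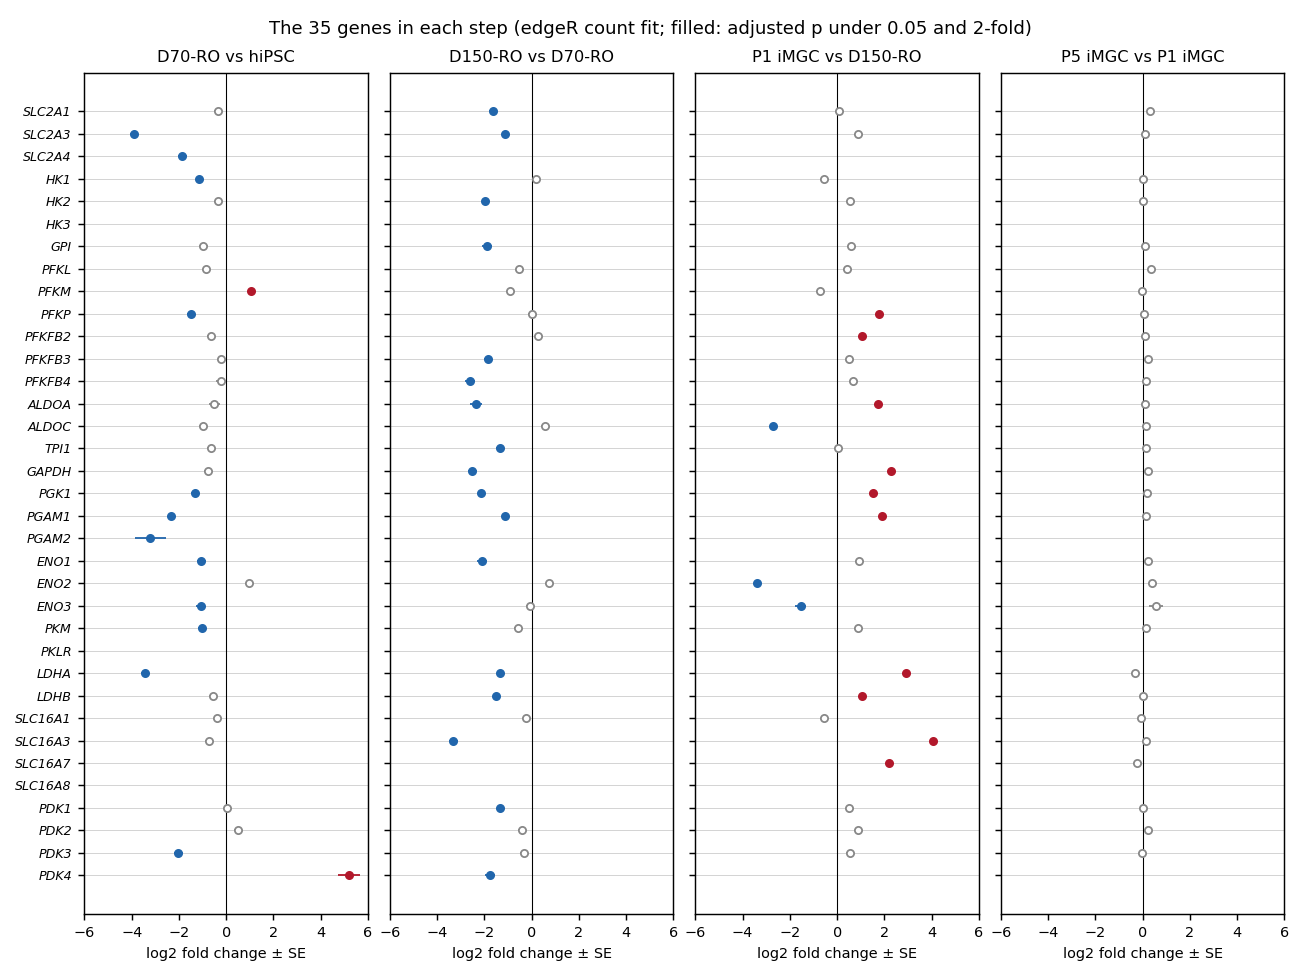
Log2 fold change ± SE (edgeR count fit) of the 35 genes in the 4 successive comparisons. Red points were called higher, blue points lower and open points neither, and genes without a point did not pass the filter. Blue points number 12, 17, 3 and 0 from left to right and red points 2, 0, 10 and 0.

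D70-RO replicate 2 stood apart in these genes and was also the library with the fewest counts. Of 29 members with at least 1 FPKM in every D70-RO library, 24 were higher there than in the mean of replicates 1 and 3, and the median ratio was 1.30, where it was 0.955 over 11897 genes. The ratio ran from 0.809 for PFKFB2 to 1.89 for ALDOA. Without this library 14 members were called lower in D70-ROs than in hiPSCs, GPI (-1.19) and ALDOC (-1.15) being added, and 15 were called lower from D70 to D150. SLC2A3 was then at -0.94 in the latter step. PDK4 reached 1 FPKM at D70 alone and could not be tested once any D70-RO library was left out.

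SLC2A1 (GLUT1) is the glucose transporter of many tissues and of blood-tissue barriers, SLC2A3 (GLUT3) is a high-affinity transporter best known from neurons, and SLC2A4 (GLUT4) is the insulin-responsive transporter of muscle and fat. SLC2A3 had 529, 537 and 471 FPKM in the hiPSC libraries, 36.1, 46.3 and 31.9 at D70, 20.0, 21.2 and 20.6 at D150, 23.8, 25.7 and 22.7 at P1, and 24.2, 25.0 and 24.5 at P5. The hiPSC libraries alone were high, and the fall to D70 was called (-3.89 ± 0.17, adjusted p = 7.95e-09). SLC2A1 had 438, 451 and 387 FPKM in the hiPSC libraries, 330.0, 435 and 332 at D70, 134, 135 and 139.8 at D150, 90.4, 92.6 and 91.4 at P1, and 109, 110.3 and 109 at P5. It fell later, since hiPSC and D70 libraries overlapped and those of D150 lay below both (-1.66 ± 0.13, adjusted p = 6.88e-06). Its FPKM was lower in every P1 than in every D150 library while the count fit gave 0.071 ± 0.042, adjusted p = 0.128, so no direction is given.

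The glucose transporter mix turned over between hiPSCs and D70-ROs. SLC2A3 held 54.5% ± 0.27 of the FPKM of these 3 genes in hiPSCs, 9.40% ± 0.57 at D70, 13.1% ± 0.38 at D150, 20.8% ± 0.94 at P1 and 18.3% ± 0.11 at P5. The log2 ratio of SLC2A1 to SLC2A3 was 2.04 in iMGCs and 2.72 at D150 (exact two-sided permutation test, p = 0.0238, adjusted p = 0.0265 over 10 ratios). SLC2A4 was a minor gene throughout. It lay at 2.88 to 3.22 FPKM in hiPSCs and 0.76 to 0.99 at D70, with a log2 change of -1.85 ± 0.21, and at 0 to 0.13 in the other libraries. The P1 libraries together held 2 counts of it and the hiPSC libraries 585, for which the 95% counting interval of the log2 ratio ran from -11.0 to -6.09.

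Hexokinase traps glucose in the cell as glucose 6-phosphate. HK1 is the form of brain and most adult tissues, HK2 is the form of muscle, fat and many growing cells, and HK3 is known from blood cells. HK1 had 146, 160.2 and 138 FPKM in the hiPSC libraries, 62.0, 87.2 and 72.9 at D70, 101, 90.7 and 100.0 at D150, 43.0, 40.6 and 43.7 at P1, and 40.5, 39.2 and 42.0 at P5. HK1 was called lower in D70-ROs than in hiPSCs (-1.13 ± 0.15, adjusted p = 3.68e-05), and every D150 library lay above every D70 library by FPKM while the count fit did not pass (0.17 ± 0.14, adjusted p = 0.287). HK2 had 53.5, 53.9 and 51.0 FPKM in the hiPSC libraries, 39.3, 50.5 and 48.5 at D70, 14.2, 13.4 and 14.2 at D150, 12.7, 13.3 and 13.5 at P1, and 12.9, 12.4 and 12.8 at P5. The fall of HK2 came between the organoid ages (-1.96 ± 0.12, adjusted p = 1.41e-06), after a small change from hiPSCs (-0.34 ± 0.13, adjusted p = 0.0309). From D150 to P1 the HK2 libraries overlapped by FPKM, and the count fit gave 0.56 ± 0.053 where limma on log2(FPKM + 1) gave -0.070. HK3 had at most 0.08 FPKM in any library, too little to test. The 5 markers of microglia and myeloid cells summed to 9.16 to 11.0 FPKM in hiPSCs, 1.37 to 2.34 at D70, 2.84 to 4.45 at D150, 6.50 to 7.78 at P1 and 8.52 to 12.2 at P5, chiefly AIF1 in hiPSCs and CD68 elsewhere, with PTPRC at most 0.03 in any library.

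HK1 was the main hexokinase in every library, and its lead was smallest at D70 and widest at D150. There were 2.80 HK1 transcripts for each HK2 transcript in hiPSCs (geometric mean of 3 libraries), 1.60 at D70, 6.99 at D150, 3.21 at P1 and 3.19 at P5. HK2 thus held 38.5% ± 1.7 of the summed FPKM of HK1, HK2 and HK3 at D70, 12.5% ± 0.29 at D150 and 23.8% ± 0.96 at P1. HKDC1, which a later paragraph takes up and which lay above HK2 at D150, is not part of that sum. The log2 ratio of HK1 to HK2 was 1.68 ± 0.052 (SD, n = 6) in iMGCs and 2.80 ± 0.037 (n = 3) at D150, and all 6 iMGC libraries lay below the D150 range (exact two-sided permutation test, p = 0.0238, adjusted p = 0.0265 over 10 ratios). This is the smallest p that 6 libraries against 3 allow. With 3 against 3 the smallest is 0.10, so ratios of the other steps carry no test. The 6 iMGC libraries come from 2 passages and may not be independent cultures. The test treats them as interchangeable, and this limit holds for all 10 ratios.

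**Figure D2:**
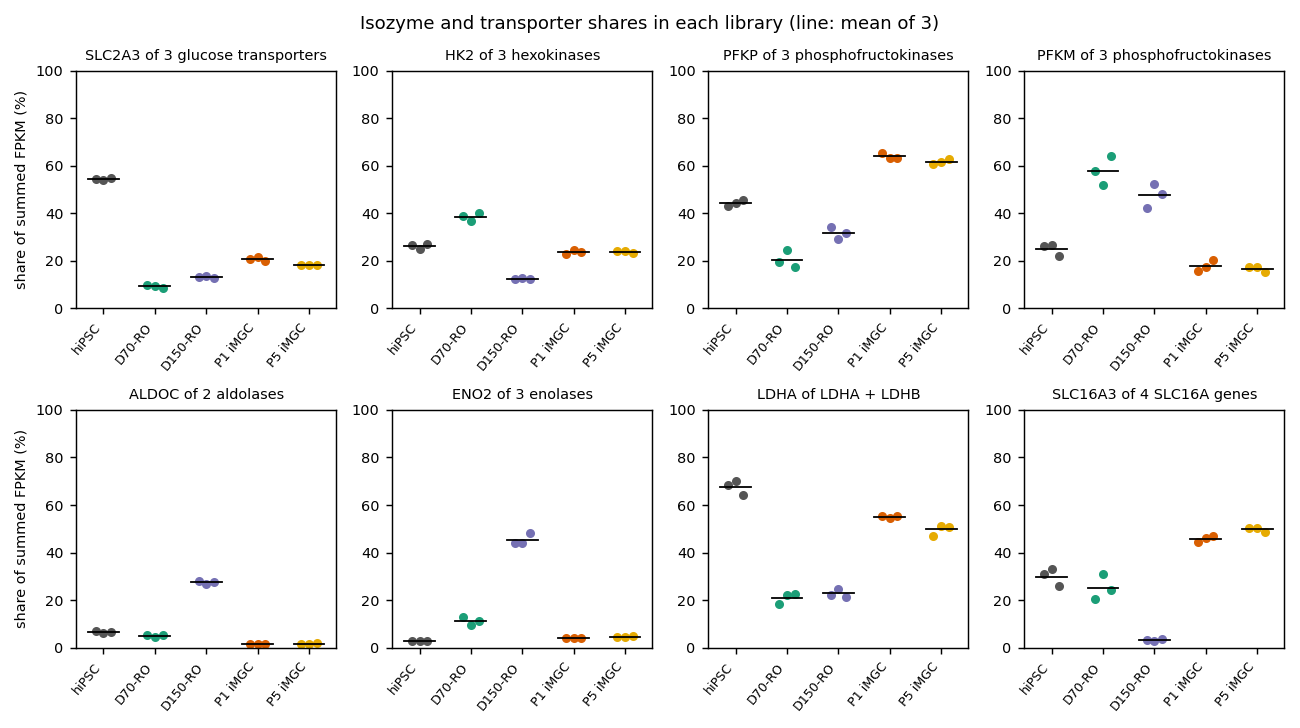
Share of 1 gene in the summed FPKM of its family (%), for each library (points, replicates 1 to 3 from left to right) with a line at the mean of the group. SLC2A3 and LDHA lead in hiPSCs, HK2 and PFKM reach their highest shares at D70, ALDOC and ENO2 theirs at D150, and PFKP and SLC16A3 theirs in iMGCs.

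GPI converts glucose 6-phosphate to fructose 6-phosphate. GPI had 448, 443 and 417 FPKM in the hiPSC libraries, 183, 336 and 217 at D70, 75.7, 71.5 and 82.3 at D150, 79.6, 77.0 and 74.0 at P1, and 78.5, 79.6 and 78.8 at P5. It fell in both organoid steps, short of 2-fold in the first (-0.97 ± 0.20) and called in the second (-1.88 ± 0.21, adjusted p = 5.03e-05). D150 and P1 libraries overlapped by FPKM, and the count fit put P1 higher by 0.59 ± 0.048.

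Phosphofructokinase commits the sugar to glycolysis and is named after the tissues where its genes were found, PFKM after muscle, PFKL after liver and PFKP after platelets. PFKM had 63.9, 63.9 and 47.2 FPKM in the hiPSC libraries, 106, 111 and 139.6 at D70, 69.8, 92.0 and 81.5 at D150, 24.8, 29.7 and 34.6 at P1, and 30.2, 29.7 and 25.9 at P5. It rose from hiPSCs to D70 (1.05 ± 0.10, adjusted p = 3.51e-06), or by 0.96 and short of 2-fold without hiPSC replicate 3, and by FPKM was lower at D150 and lower again at P1, while P1 and P5 libraries overlapped. PFKP had 105, 107 and 98.1 FPKM in the hiPSC libraries, 35.7, 52.5 and 37.8 at D70, 56.5, 51.4 and 53.4 at D150, 104, 107 and 107 at P1, and 104, 106 and 107 at P5. It fell where PFKM rose (-1.49 ± 0.17, adjusted p = 1.09e-05) and rose from D150 to P1 (1.78 ± 0.047, adjusted p = 8.60e-15), where limma on log2(FPKM + 1) gave 0.97. PFKL had a mean of 71.6 FPKM in hiPSCs and of 44.0, 35.2, 30.1 and 37.1 in the later groups, and the main edgeR fit called it in none of the 5 comparisons. In P1 against hiPSCs it was at -0.97 ± 0.080 there and was called lower with upper-quartile scaling (-1.09), by limma on log2(FPKM + 1) (-1.22) and log2(FPKM + 0.1) (-1.25), and without any 1 hiPSC library (-1.16 to -1.09). From D150 to P1 it was 0.42 ± 0.066 in the count fit and -0.22 by limma on log2(FPKM + 1).

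The main phosphofructokinase gene therefore differed by group. PFKP led in hiPSCs with 44.3% ± 1.3 of the FPKM of the 3 genes, PFKM led at D70 with 58.0% ± 6.2 and at D150 with 47.6% ± 4.9, and PFKP led again at P1 with 63.9% ± 1.2 and at P5 with 61.7% ± 1.1. The log2 ratio of PFKM to PFKP was -1.87 ± 0.17 (SD, n = 6) in iMGCs and 0.59 ± 0.27 (n = 3) at D150 (exact two-sided permutation test, p = 0.0238, adjusted p = 0.0265 over 10 ratios). The ratio of PFKL to PFKP differed by -1.05 in the same direction, with the same p.

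The PFKFB enzymes set the level of fructose 2,6-bisphosphate, a strong activator of phosphofructokinase. PFKFB3 had 44.7, 50.01 and 38.4 FPKM in the hiPSC libraries, 32.9, 39.7 and 42.4 at D70, 14.0, 12.4 and 11.7 at D150, 10.9, 11.7 and 11.9 at P1, and 13.1, 12.8 and 13.2 at P5. PFKFB4 had 46.1, 43.4 and 39.9 FPKM in the hiPSC libraries, 33.2, 54.5 and 34.1 at D70, 9.26, 8.16 and 8.06 at D150, 7.74, 8.96 and 8.93 at P1, and 9.48, 8.87 and 9.45 at P5. Both overlapped between hiPSCs and D70, and both were called lower at D150, PFKFB3 with a log2 change of -1.87 ± 0.14, adjusted p = 5.25e-06, and PFKFB4 with -2.60 ± 0.22, adjusted p = 9.67e-06. Neither was called from D150 to P1. Their ratio in iMGCs lay -0.12 (log2) from that at D150 (exact two-sided permutation test, p = 0.0238, adjusted p = 0.0265 over 10 ratios), a difference that did not pass with expected counts. PFKFB2, known from heart, was at 2.58 to 5.07 FPKM over all libraries. It was called higher from D150 to P1 (1.05 ± 0.074, adjusted p = 1.91e-09) with mean FPKM of 4.11 and 4.58, and fell short of 2-fold without any 1 of the D150-RO libraries (0.89 to 0.91).

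Aldolase cleaves the sugar into triose phosphates. ALDOA is the form of muscle and most cells, and ALDOC is the form of brain and retina. ALDOA had 1829.9, 1754 and 1843 FPKM in the hiPSC libraries, 1055, 2009 and 1072 at D70, 318, 314 and 323 at D150, 663, 712 and 687 at P1, and 713, 714 and 710.5 at P5. D70-RO replicate 2 exceeded every hiPSC library while replicates 1 and 3 lay well below them, and the D150 libraries were the lowest of all. The change was -2.34 ± 0.25, adjusted p = 4.02e-05 from D70 to D150, or -1.96 without D70-RO replicate 2, and 1.73 ± 0.047, adjusted p = 1.26e-14 from D150 to P1. ALDOC had 136, 112 and 132 FPKM in the hiPSC libraries, 57.9, 90.2 and 59.0 at D70, 125, 115 and 123 at D150, 11.3, 11.6 and 11.5 at P1, and 11.6, 12.4 and 13.1 at P5. It went the other way in both steps, with 0.56 ± 0.18, adjusted p = 0.0178 from D70 to D150, short of 2-fold, and -2.72 ± 0.056, adjusted p = 3.36e-16 from D150 to P1.

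These opposite moves made the aldolase mix of D150-ROs unlike that of the other groups. ALDOC held 27.5% ± 0.72 of aldolase FPKM at D150, 6.53% ± 0.48 in hiPSCs, 4.91% ± 0.53 at D70, 1.64% ± 0.034 at P1 and 1.71% ± 0.11 at P5. The log2 ratio of ALDOA to ALDOC was 4.48 higher in iMGCs than at D150 (exact two-sided permutation test, p = 0.0238, adjusted p = 0.0265 over 10 ratios). TPI1, which interconverts the triose phosphates, had 1879.5, 1815 and 1850.3 FPKM in the hiPSC libraries, 1102, 1667 and 1122 at D70, 615, 587 and 587 at D150, 369.8, 408 and 398 at P1, and 402, 405 and 426 at P5. Each group from hiPSC to P1 lay below the one before by FPKM. The count fit called the fall from D70 to D150 (-1.35 ± 0.17, adjusted p = 0.000103) and gave 0.048 ± 0.050, adjusted p = 0.375 from D150 to P1, where the ratio of mean FPKM was -0.61 (log2), so the direction of that last step depends on the scale.

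GAPDH oxidises the triose phosphate and was the most abundant of the 35 genes in every library. GAPDH had 7034, 6846 and 7304 FPKM in the hiPSC libraries, 4132, 5956 and 3663 at D70, 993, 991 and 906 at D150, 2967, 3038 and 2991 at P1, and 3271, 3450.2 and 3387 at P5. No groups overlapped, and D150 was the lowest. The count fit gave -0.77 ± 0.18, adjusted p = 0.00224 from hiPSC to D70, -2.52 ± 0.19, adjusted p = 4.86e-06 from D70 to D150 and 2.29 ± 0.051, adjusted p = 1.04e-15 from D150 to P1, so GAPDH was not a constant reference across these samples. GENCODE 29 names 62 pseudogenes of GAPDH and 13 of PGAM1, and reads shared with such copies make the levels of these genes less certain than those of the rest.

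PGK1 makes the first ATP of the pathway. PGK1 had 897, 715 and 904 FPKM in the hiPSC libraries, 312, 460.1 and 335 at D70, 93.5, 90.1 and 99.6 at D150, 175, 195 and 189 at P1, and 215, 191 and 205 at P5. It was called lower in both organoid steps (-1.32 ± 0.17, adjusted p = 2.64e-05, then -2.14 ± 0.15, adjusted p = 4.16e-06) and higher from D150 to P1 (1.51 ± 0.054, adjusted p = 3.67e-13). PGAM1, the phosphoglycerate mutase of most tissues, had 1150.5, 1147 and 1197 FPKM in the hiPSC libraries, 228, 296 and 236 at D70, 137, 131 and 137 at D150, 321, 336 and 322 at P1, and 351, 333 and 344 at P5. It was called in the same directions as PGK1, with its larger fall in the first step (-2.33 ± 0.14, adjusted p = 6.74e-08, then -1.14 ± 0.12, adjusted p = 4.09e-05) and a rise of 1.92 ± 0.046, adjusted p = 2.43e-15 from D150 to P1. PGAM2, the muscle form, was at 2.09 to 2.96 FPKM in hiPSCs and 0 to 0.88 elsewhere. It had 130 counts over the hiPSC libraries and 0 over those of P1, which makes it at least 36.5-fold lower there, taking 3 counts over the group as the floor.

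Enolase makes phosphoenolpyruvate. ENO1 is the general form, ENO2 is the neuron-specific form long used as a nerve cell marker, and ENO3 is the muscle form. ENO1 had 3352, 3220.5 and 3333 FPKM in the hiPSC libraries, 1352, 2330.2 and 1555 at D70, 493, 465 and 466 at D150, 578, 584 and 567 at P1, and 661, 610.2 and 644 at P5. It was called lower in both organoid steps (-1.05 ± 0.19, adjusted p = 0.000475, then -2.11 ± 0.20, adjusted p = 2.04e-05) and rose by less than 2-fold from D150 to P1 (0.92 ± 0.044, adjusted p = 1.61e-11). ENO2 had 102, 94.5 and 100.0 FPKM in the hiPSC libraries, 202, 242 and 200.1 at D70, 393, 368 and 439 at D150, 23.6, 25.8 and 23.7 at P1, and 30.0, 29.04 and 33.0 at P5. It was the 1 member whose FPKM rose without overlap in both organoid steps and then fell on culture. Both rises were short of 2-fold in the count fit (0.95 ± 0.12, adjusted p = 2.86e-05, then 0.71 ± 0.11, adjusted p = 0.000444), and the fall from D150 to P1 was the steepest of the members (-3.38 ± 0.066, adjusted p = 2.18e-16). The first rise passed 2-fold with upper-quartile scaling (1.05), limma on log2(FPKM + 1) or log2(FPKM + 0.1) (both 1.11), and without D70-RO replicate 1 or 3 (both 1.09). It also did on log2(TPM + 1) (1.02) and with the length trend removed (1.00), both chosen after seeing the data. It did not by DESeq2, with no filter, in the joint fit of 15 libraries, with the replicate block or without D70-RO replicate 2 (0.92). ENO3 had 7.90 to 8.65 FPKM in hiPSCs, 3.96 to 4.33 at D70, 4.37 to 4.96 at D150 and 0.91 to 1.67 in iMGCs, and was called lower from hiPSC to D70 and from D150 to P1.

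In D150-ROs ENO2 came close to ENO1. There were 33.5 ENO1 transcripts for each ENO2 transcript in hiPSCs, 7.95 at D70, 1.19 at D150, 23.7 at P1 and 20.8 at P5, and ENO2 held 45.4% ± 2.4 of enolase FPKM at D150 against 4.05% ± 0.15 at P1. The log2 ratio differed by 4.22 between iMGCs and D150 (exact two-sided permutation test, p = 0.0238, adjusted p = 0.0265 over 10 ratios). ALDOC, the form of brain and retina, and ENO2, the neuron-specific form, were low in iMGCs, where the photoreceptor and neuron markers were near 0. In hiPSCs those markers were also low, at 4.47 to 5.51 and 0.44 to 0.63 summed FPKM, while mean ALDOC was 127 FPKM, close to its 121 at D150, and mean ENO2 was 98.7. The part of photoreceptors and neurons in the ALDOC and ENO2 levels was not tested.

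**Figure D3:**
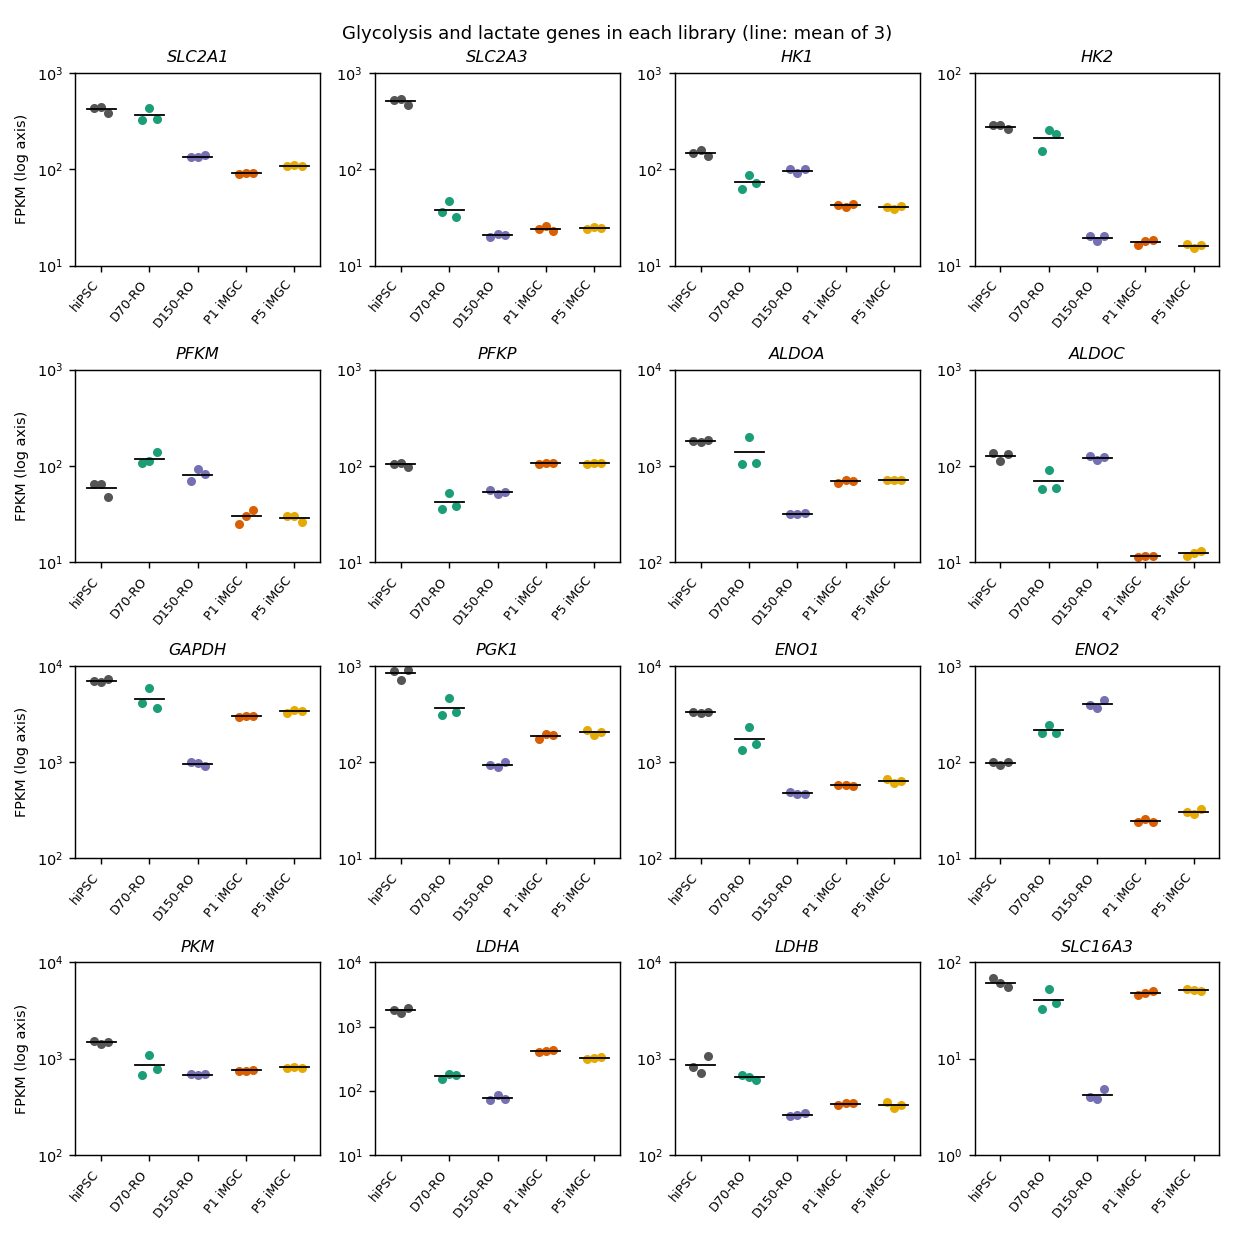
FPKM of 16 of the 35 genes in each library (points, replicates 1 to 3 from left to right) with a line at the mean of the group, on log axes that differ between panels. SLC2A3 is high in hiPSCs alone, GAPDH and SLC16A3 are lowest at D150, ENO2 and ALDOC drop from D150 to iMGCs, and the middle D70 point (replicate 2) stands above the other two for ALDOA, GAPDH and ENO1.

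Pyruvate kinase makes pyruvate and ATP. PKM encodes the muscle and the embryonic splice forms, which a count per gene does not separate, and PKLR encodes the liver and red cell forms. PKM had 1518, 1408 and 1485 FPKM in the hiPSC libraries, 680.2, 1091 and 787 at D70, 690.5, 667 and 689 at D150, 749, 751 and 769.6 at P1, and 805, 813 and 806 at P5. It was called lower from hiPSC to D70 (-1.03 ± 0.17, adjusted p = 0.000246). From D70 to D150 the libraries overlapped and the count fit gave -0.56 ± 0.17, adjusted p = 0.0149, where limma on log2(TPM + 1), an alternative chosen after seeing the data, gave 0.21. It rose by less than 2-fold from D150 to P1 (0.90 ± 0.044, adjusted p = 1.68e-11). PKLR had 1.56, 0.89 and 1.22 FPKM in hiPSCs, 0.02 to 0.12 at D70, 0 to 0.05 at D150 and 0 in all iMGC libraries, and was below the filter. With 216 counts over the hiPSC libraries and 0 over those of P1, it was at least 60.7-fold lower. PKM thus held 99.9% of pyruvate kinase FPKM in hiPSCs, where its share was lowest, and no ratio test was run because PKLR was at 0 in 7 libraries.

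Lactate dehydrogenase is built of LDHA subunits, classed as the muscle form and tied to lactate formation, and LDHB subunits, classed as the heart form and tied to lactate use. LDHA had 1788, 1644 and 1931 FPKM in the hiPSC libraries, 152, 179 and 177 at D70, 72.4, 84.9 and 73.7 at D150, 405, 411 and 424 at P1, and 311, 322 and 339.5 at P5. No groups overlapped. LDHA fell from hiPSC to D70 (-3.44 ± 0.15, adjusted p = 6.07e-09) and again to D150 (-1.33 ± 0.10, adjusted p = 4.81e-06), and rose from D150 to P1 (2.91 ± 0.047, adjusted p = 2.45e-17). LDHB had 821, 701 and 1074 FPKM in the hiPSC libraries, 675, 636 and 602 at D70, 253, 257 and 271 at D150, 326, 343 and 343 at P1, and 350.0, 305 and 329 at P5. It moved less than LDHA in the first step (-0.58 ± 0.14, adjusted p = 0.00338), was called lower in the second (-1.50 ± 0.082, adjusted p = 9.37e-07) and was called higher from D150 to P1 (1.06 ± 0.048, adjusted p = 6.27e-12). That last call was lost without any 1 of the D150-RO libraries (0.89 to 0.93) and on log2(FPKM + 1) (0.37).

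The LDHA share was high in hiPSCs, low in both organoid groups and near even in iMGCs. LDHA was 64.3% to 70.1% of the LDHA and LDHB FPKM in hiPSCs, 18.4% to 22.7% at D70 and 21.4% to 24.8% at D150, which overlap, 54.5% to 55.4% at P1 and 47.0% to 51.4% at P5. There were 2.09 LDHA transcripts for each LDHB transcript in hiPSCs, 0.265 at D70, 0.295 at D150, 1.23 at P1 and 0.990 at P5. The log2 ratio was 0.14 ± 0.19 (SD, n = 6) in iMGCs and -1.76 ± 0.15 (n = 3) at D150, and all 6 iMGC libraries lay above the D150 range (exact two-sided permutation test, p = 0.0238, adjusted p = 0.0265 over 10 ratios). The test pooled P1 and P5, which did not overlap in this ratio. The difference was 1.90 in all, 2.06 for P1 alone, 1.75 for P5 alone and 1.68 with expected counts in place of FPKM.

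The sequences upstream of LDHA, LDHB, ENO1 and ENO2 are shown because the genes of each pair changed by different amounts. Each line is the 250 bases before a RefSeq start on GRCh38.p14, read on the strand of the gene. Capitals mark ACGTG, the core of the hypoxia response element bound by HIF, or its reverse complement CACGT. Where both overlap they form CACGTG, the E-box bound by MYC and related factors. The windows are chr11:18394313-18394562 (plus strand) for LDHA, chr12:21657843-21658092 (minus) for LDHB, chr1:8878687-8878936 (minus) for ENO1 and chr12:6914330-6914579 (plus) for ENO2, with the last 3 inside the gene spans of GENCODE 29, which include longer transcripts, and that of LDHA across the start of its span at 18394388.
LDHA: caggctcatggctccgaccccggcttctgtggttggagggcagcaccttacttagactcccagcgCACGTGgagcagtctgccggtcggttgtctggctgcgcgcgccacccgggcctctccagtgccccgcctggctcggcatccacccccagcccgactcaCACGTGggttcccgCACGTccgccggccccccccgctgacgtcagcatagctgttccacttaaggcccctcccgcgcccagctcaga
LDHB: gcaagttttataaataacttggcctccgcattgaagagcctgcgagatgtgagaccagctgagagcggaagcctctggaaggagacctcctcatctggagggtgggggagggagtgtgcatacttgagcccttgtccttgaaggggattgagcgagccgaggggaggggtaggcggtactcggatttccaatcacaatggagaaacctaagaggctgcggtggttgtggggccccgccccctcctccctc
ENO1: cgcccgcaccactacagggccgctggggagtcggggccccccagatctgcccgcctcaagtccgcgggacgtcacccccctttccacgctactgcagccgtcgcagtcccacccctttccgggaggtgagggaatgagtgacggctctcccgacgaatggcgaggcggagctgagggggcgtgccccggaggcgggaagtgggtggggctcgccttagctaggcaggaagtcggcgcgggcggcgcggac
ENO2: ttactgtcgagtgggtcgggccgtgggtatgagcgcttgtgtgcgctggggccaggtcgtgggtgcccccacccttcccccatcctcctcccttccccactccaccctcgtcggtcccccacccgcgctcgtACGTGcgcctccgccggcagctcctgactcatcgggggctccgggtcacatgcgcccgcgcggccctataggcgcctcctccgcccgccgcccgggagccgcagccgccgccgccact

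The LDHA window holds CACGTG at 2 places and 1 further CACGT, and the window of a second LDHA start holds neither motif. The ENO2 window holds ACGTG once, 118 bases before the start, and the LDHB and ENO1 windows hold no match. Promoters were found in the RefSeq table for 31 of the 35 genes, with 62 windows because many genes have several starts. ACGTG or CACGT was in 32.3% of these windows and in 18.5% of all 35116 windows, and CACGTG was in 12.9% and 6.34%. The 35116 windows belong to 27305 genes and were not matched to the members in base content or expression, and the shares were not tested. A match is a run of letters, and binding was not measured.

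SLC16A1 (MCT1) is the widespread lactate transporter, SLC16A3 (MCT4) exports lactate from strongly glycolytic cells, SLC16A7 (MCT2) is a high-affinity form of neurons, and SLC16A8 (MCT3) belongs to the retinal pigment epithelium. SLC16A3 had 68.2, 61.1 and 55.4 FPKM in the hiPSC libraries, 32.4, 52.5 and 37.5 at D70, 3.96, 3.83 and 4.77 at D150, 45.9, 48.0 and 50.4 at P1, and 52.6, 52.1 and 50.03 at P5. The D150 libraries lay far below all others. The fall from D70 to D150 was the steepest of the members in that step (-3.32 ± 0.19, adjusted p = 1.09e-06), and so was the rise from D150 to P1 (4.05 ± 0.080, adjusted p = 2.27e-16). SLC16A1 had 150.3, 124 and 159 FPKM in the hiPSC libraries, 126, 116 and 117 at D70, 116, 124 and 121 at D150, 54.1, 52.3 and 52.5 at P1, and 48.9, 48.8 and 49.2 at P5. The D70 libraries overlapped those of hiPSCs and of D150, and all iMGC libraries lay below them. From D150 to P1 the count fit gave -0.56 ± 0.043, adjusted p = 5.68e-09, short of 2-fold, and limma on log2(FPKM + 1) gave -1.17.

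Of the FPKM of these 4 transporters, SLC16A3 held 29.9% ± 3.7 in hiPSCs, 25.2% ± 5.4 at D70, 3.32% ± 0.39 at D150, 45.9% ± 1.3 at P1 and 49.9% ± 0.91 at P5. The log2 ratio of SLC16A1 to SLC16A3 was 0.033 ± 0.13 (SD, n = 6) in iMGCs and 4.85 ± 0.18 (n = 3) at D150, the widest of the 10 differences tested (exact two-sided permutation test, p = 0.0238, adjusted p = 0.0265 over 10 ratios). SLC16A7 had 0.16, 0.36 and 0.19 FPKM in the hiPSC libraries, 0.65, 0.19 and 0.92 at D70, 0.69, 0.71 and 1.04 at D150, 2.98, 3.07 and 4.42 at P1, and 2.72, 2.77 and 3.22 at P5. It was low throughout, with a log2 change of 2.18 ± 0.11 from D150 to P1 and 4.52 ± 0.16 in P1 against hiPSCs. The P1 libraries carried it past the filter in both, and it could not be tested against hiPSCs once any of them was left out. SLC16A8 had 1.37, 0.46 and 0.74 FPKM at D150, at most 0.37 in hiPSCs, D70 and P1, and 0 at P5, and was below the filter. The 6 markers of pigment epithelium summed to 119.7 to 138 FPKM in hiPSCs, 86.4 to 142 at D70, 24.7 to 31.5 at D150 and 4.37 to 5.83 in iMGCs. Mean PMEL made up 127 FPKM in hiPSCs and 102 at D70, and mean TTR 21.8 at D150, while RPE65 was at most 0.12 and TYR at most 0.60 in any library. Their part in the SLC16A8 level was not tested.

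The transporters need partner proteins to reach the membrane. BSG (basigin), the partner of MCT1 and MCT4, went from 802 to 864 FPKM in hiPSCs to 484 to 778 at D70, 358 to 403 at D150 and 284 to 309 in iMGCs, and was called in no successive step. EMB (embigin), the partner of MCT2, was at 4.88 to 7.28 FPKM in hiPSCs, 0.15 to 1.09 at D70, 1.18 to 1.59 at D150, 11.6 to 12.6 at P1 and 6.72 to 8.52 at P5. EMB was called lower at D70 and higher from D70 to D150 and from D150 to P1 (3.62 ± 0.10, adjusted p = 1.63e-14). It needed the hiPSC libraries to pass the filter at D70 and those of D150 in the next step. This favours its direction in both, so those calls are a description.

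Pyruvate dehydrogenase kinases switch off the enzyme that feeds pyruvate into the citric acid cycle. PDK1 had 35.4, 25.9 and 33.1 FPKM in the hiPSC libraries, 33.6, 36.3 and 36.5 at D70, 13.9, 12.3 and 12.6 at D150, 12.8, 13.7 and 12.2 at P1, and 12.8, 12.7 and 12.9 at P5. It was called lower from D70 to D150 (-1.36 ± 0.088, adjusted p = 2.26e-06). From D150 to P1 the libraries overlapped, with 0.51 ± 0.059 in the count fit and -0.00085 by limma on log2(FPKM + 0.1). PDK3 fell earlier, from 15.2, 10.9 and 13.9 FPKM in hiPSCs to 3.64, 3.95 and 3.20 at D70 (-2.03 ± 0.18, adjusted p = 1.65e-06), and stayed at 2.66 to 3.47 later. PDK4, known from fasting and fat use, had 0.01, 0.03 and 0.12 FPKM in the hiPSC libraries, 2.14, 2.88 and 2.08 at D70, 0.87, 0.77 and 0.78 at D150, 0.05, 0.070 and 0.05 at P1, and 0.13, 0.13 and 0.06 at P5. The log2 change was 5.20 ± 0.46 from hiPSC to D70 and -1.77 ± 0.21 from D70 to D150, given as a description because D70 alone carried it past the filter.

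PDK2 gained in share, from 19.3% ± 1.9 of the FPKM of the 4 kinases in hiPSCs to 26.6% ± 2.4 at D70, 48.3% ± 4.1 at D150, 54.9% ± 4.2 at P1 and 58.4% ± 4.2 at P5, while its own level was 10.1 to 11.7 FPKM in hiPSCs and 18.1 to 26.2 in iMGCs. The main edgeR fit called it in none of the 5 comparisons. In P1 against hiPSCs it was at 0.98 ± 0.087 there and was called higher by DESeq2 (1.00), on log2(TPM + 1) (1.15), with the length trend removed (1.27) and without any 1 P1 library (1.07 to 1.11). With P5 in place of P1 it was called higher against D150 (1.10). The log2 ratio of PDK1 to PDK3 differed by 0.14 between iMGCs and D150 and did not pass (exact two-sided permutation test, p = 0.190, adjusted p = 0.190 over 10 ratios), with 3 of 6 iMGC libraries outside the D150 range. Of 12 genes that carry pyruvate into the mitochondria and the citric acid cycle, 1 was called higher and 2 lower from hiPSC to D70. None was called from D70 to D150 (5 higher and 3 lower at an unadjusted p under 0.05 in edgeR), and 2 were called higher from D150 to P1. Over all genes 22.5% were called higher and 21.1% lower in the first of these steps, 16.6% and 16.7% in the second, and 20.0% and 24.1% in the third. The pyruvate carrier MPC1 was the gene higher at D70 (1.34 ± 0.18, adjusted p = 4.46e-05), and PDHB of pyruvate dehydrogenase (1.14 ± 0.063, adjusted p = 8.72e-11) and pyruvate carboxylase, PC (1.32 ± 0.10, adjusted p = 7.24e-09), were those higher at P1.

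**Figure D4:**
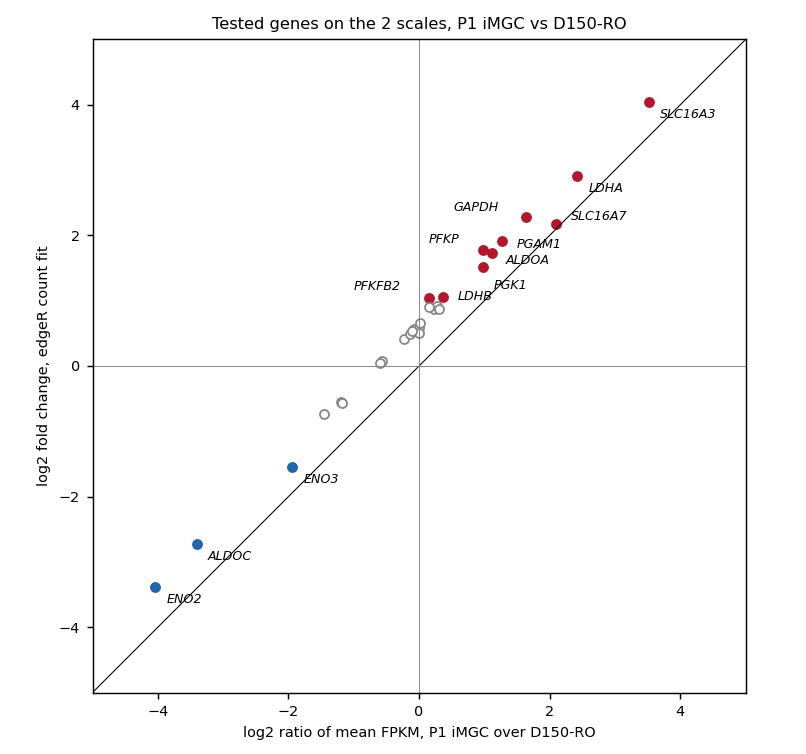
Log2 fold change in the edgeR count fit (vertical) against the log2 ratio of mean FPKM (horizontal) for the 29 genes tested in P1 iMGC vs D150-RO, with red points called higher, blue points called lower, open points neither, and a diagonal at equal values. All points lie above the diagonal, and 7 of the open points lie left of 0 and above 0, where the scales give opposite directions.

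The change of scale touched the small changes. In P1 against D150 the count fit and mean FPKM gave opposite signs for SLC2A1, HK2, PFKL, PFKFB3, TPI1, PDK1 and PDK3, 7 of 29 members and none of those called. From D70 to D150 there were 3 such members, SLC16A1, ENO3 and PDK2, from hiPSC to D70 there was none, and in P1 against hiPSCs there was 1, SLC16A3. From P1 to P5 there were 4, HK2, PFKP, LDHB and PDK1.

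Between P1 and P5 iMGCs none of the 29 tested members was called by edgeR or by DESeq2, where 1.94% of all genes tested were called higher and 0.977% lower. By adjusted p alone 13 members were higher and 2 lower, against 16.6% and 14.0% of all genes, and at an unadjusted p under 0.05 the members numbered 14 and 2. Of the 13, ENO2 (0.40 ± 0.054, adjusted p = 2.55e-06), PFKL (0.36 ± 0.050, adjusted p = 3.61e-06) and SLC2A1 (0.32 ± 0.037, adjusted p = 2.17e-07) had the largest rises. LDHA was lower in every P5 library than in every P1 library (-0.31 ± 0.040, adjusted p = 1.09e-06), and SLC16A7 was the other member below (-0.25 ± 0.091, adjusted p = 0.0379). LDHB (0.019 ± 0.041, adjusted p = 0.777), HK1 (-0.0046 ± 0.042, adjusted p = 0.955) and HK2 (0.011 ± 0.048, adjusted p = 0.897) did not pass, and for LDHB and HK2 mean FPKM gave the opposite sign.

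Among other isozymes and sugar transporters, HKDC1, a hexokinase domain protein, had 0.06 to 0.20 FPKM in hiPSCs, 0.37 to 1.43 at D70, 17.4 to 19.1 at D150, above HK2 there, 4.05 to 5.44 at P1 and 11.4 to 12.7 at P5. It was called higher from D70 to D150 (4.58 ± 0.40, adjusted p = 1.24e-05), lower from D150 to P1 (-1.31 ± 0.086, adjusted p = 7.27e-10) and higher from P1 to P5 (1.40 ± 0.080, adjusted p = 8.64e-13). HKDC1 needed the D150 libraries to pass the filter against D70, which favours its direction, so that call is a description. Of the 22 genes in this list, 8 were tested from D150 to P1, with 3 called higher and 1 lower, where 20.0% and 24.1% of all genes were.

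The pentose phosphate pathway branches off at glucose 6-phosphate. Of its 7 genes, none was called higher and 4 lower from hiPSC to D70, none and 3 from D70 to D150, and 3 and none from D150 to P1. The shares called over all genes in these steps were 22.5% higher and 21.1% lower, then 16.6% and 16.7%, then 20.0% and 24.1%, and the counts of the lists that follow are to be read against them. TKT (transketolase) was among those called each time, with 693 to 720.3 FPKM in hiPSCs, 268 to 383 at D70, 63.7 to 69.5 at D150 and 94.0 to 100.4 at P1. Of 11 glycogen genes 3 were called higher and 5 lower from hiPSC to D70, 2 and 5 from D70 to D150, and 4 and 1 of 10 tested from D150 to P1. GBE1, the branching enzyme, had the largest rise among them from D150 to P1, from 11.2 to 12.6 to 52.4 to 53.4 FPKM (2.76 ± 0.050, adjusted p = 8.11e-17). Of 5 gluconeogenesis genes 3 were tested from hiPSC to D70, and these, PCK2, FBP1 and G6PC3, were called lower.

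HIF1A, the oxygen-sensitive subunit of HIF, had 27.4 to 45.4 FPKM in hiPSCs, 55.6 to 86.8 at D70, 153 to 159 at D150, 662 to 697 at P1 and 615 to 632 at P5. It was called higher from D150 to P1 (2.80 ± 0.047, adjusted p = 3.76e-17). HIF is controlled chiefly at the protein, which was not measured. Of 17 genes of oxygen sensing and hypoxia response outside glycolysis, 16 were tested in each of the first 3 steps, with 6 called higher and 2 lower, then 1 and 6, then 5 and 3. BNIP3, a mitophagy receptor, fell from D70 to D150 (-2.37 ± 0.11) and rose from D150 to P1 (1.18 ± 0.060), and so did the collagen hydroxylase P4HA1 (-2.13 ± 0.15 and 2.85 ± 0.051). NDRG1, a stress response gene, rose at D70 (3.93 ± 0.18) and fell from D150 to P1 (-1.52 ± 0.056), and EGLN3, an oxygen sensor, fell from D150 to P1 (-3.05 ± 0.20), so the list did not move in 1 direction.

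Among 11 other regulators, 4 were called higher and 3 lower from hiPSC to D70, 3 and 1 of 10 tested from D70 to D150, and 1 and 3 of 10 from D150 to P1. MYC, a transcription factor that acts on many glycolysis genes, had 40.2 to 53.7 FPKM in hiPSCs, 2.28 to 5.76 at D70, 6.48 to 7.33 at D150, 42.5 to 46.3 at P1 and 37.3 to 39.4 at P5. It was called lower at D70 (-3.86 ± 0.27, adjusted p = 2.26e-07) and higher from D150 to P1 (3.51 ± 0.068, adjusted p = 1.94e-16). Its relative MYCN had 45.4 to 59.9 FPKM in hiPSCs, 21.2 to 41.0 in ROs and at most 0.05 in iMGCs. TXNIP, which restrains glucose uptake, was at 24.9 to 32.0 FPKM in hiPSCs, 114 to 122 in ROs, 35.8 to 39.3 at P1 and 71.7 to 73.6 at P5, and was the 1 regulator of 8 tested that was called from P1 to P5 (1.03 ± 0.043, adjusted p = 2.14e-15).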

How the data were processed

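RNA was sequenced from 15 libraries, 3 for each of the 5 groups. The authors aligned reads using HISAT2, with StringTie for assembly and RSEM for quantification. Software versions, genome build and annotation are not given in the sources used here. Per gene, the deposited values are expected counts, RSEM estimates that are not normalized, and FPKM, in which the authors corrected for length and library size. Between 8.21% and 10.1% of a library's expected counts were not whole, and they were rounded. Columns of the authors' own fold changes and p-values were not used, nor were 6 iMGC columns whose names give no passage.

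The 35 genes and all other lists were chosen with earlier results of these data known. Every member is named, and other genes come from lists of isozymes, neighbouring pathways, regulators and cell markers. Within these lists the genes described singly were chosen after their values were seen. A gene of the isozyme list is not reported here. Symbols of 19604 of 19684 identifiers came from a table of gene names and the rest from GENCODE 29.

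Groups were compared pairwise with edgeR 4.0.16 (quasi-likelihood, TMM, R 4.3.3), keeping genes that reached an FPKM of 1 in 3 or more of the compared libraries, with Benjamini-Hochberg adjustment over all of them. Ratios of isozyme FPKM were compared between iMGC and D150-RO libraries by exact permutation. Alternatives were DESeq2 1.42.0, limma 3.58.1 on log2(FPKM + 1) and log2(FPKM + 0.1), upper-quartile scaling, no filter, a joint fit of 15 libraries, the replicate number as a block, P5 in place of P1, and leaving out each library. Limma on log2(TPM + 1), with TPM rescaled here from FPKM, and removal of a length trend were added after seeing the data. Floors (3 counts over a group) and intervals cover counting error only.

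The samples' descriptions and the paper give 3 independent experiments, and the text of the series gives 2 for hiPSCs and ROs, so part of the spread behind the p-values may be technical. The text of the series also names 2 sequencing companies and a correction for joint analyses. The paper names a single company, Gene Denovo, for all samples, so the sources differ. The text of the series does not assign libraries to its 2 companies, and if both were used, company and group cannot be told apart.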

Additional observations from a re-analysis of the deposited data

How the results depend on the processing

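Of 122 fold changes of the 35 genes with an adjusted p under 0.05, 11 changed direction under at least 1 alternative that kept all libraries and 0 when 1 library was left out. From D150 to P1, limma on log2(FPKM + 1), on log2(FPKM + 0.1) and on log2(TPM + 1), the last chosen after seeing the data, gave HK2 -0.070, -0.075 and -0.17, PFKL -0.22, -0.22 and -0.32, PFKFB3 -0.13, -0.14 and -0.23, PDK1 -0.000811, -0.000853 and -0.10, and PDK3 -0.079, -0.10 and -0.18. On log2(TPM + 1) alone GPI was -0.091 and PFKFB4 -0.088. From D70 to D150 the same 3 settings gave SLC16A1 0.0061, 0.0062 and 0.50, and log2(TPM + 1) gave PFKL 0.18 and PKM 0.21. With the length trend removed, also chosen after seeing the data, PFKFB2 was -0.043 in P1 against hiPSCs. The cause of these turns was not tested. Counts of members called moved as follows. Between D150 and P1 each limma setting called 6 higher and 6 lower, and with no filter 6 were lower. From D70 to D150 log2(TPM + 1) called 2 higher and 9 lower, and with no filter 1 was higher. In P1 against hiPSCs 2 were higher with DESeq2, with log2(TPM + 1) and with the length trend removed. From P1 to P5 no filter called 1 higher and 1 lower, and over all genes 694 were called with no filter, 152 on log2(FPKM + 1) and 221 on log2(TPM + 1), against 332. Among all genes called from D70 to D150, 49.8% were higher in the count fit, 63.3% on log2(FPKM + 1) and 86.3% on log2(TPM + 1), and in P1 against hiPSCs 46.8% and, on log2(FPKM + 1), 35.6%.

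With 1 library left out, 1 to 2 members were called higher and 8 to 14 lower from hiPSC to D70, and 8 to 10 were called higher from D150 to P1. Of the ratios that passed, PFKFB3 to PFKFB4 did not pass with expected counts (-0.13), and the others passed with expected counts and with FPKM + 1. The main fit did not pair libraries by replicate number. The deviations of equally numbered libraries correlated at -0.074 to 0.337, and in no comparison were all 3 above 0.1. Between hiPSCs and D70-ROs they were 0.0289, 0.337 and 0.133, so whether these libraries were paired was not settled. With the replicate number as a block 14 members in place of 12 were called lower from hiPSC to D70, and the counts of members called in the other comparisons did not change. HK3, PKLR and SLC16A8 were too low to test at this depth.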
